A study of Mus musculus with 4 samples.

Results

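Retnlg-high neutrophils made up 89 of the 28194 cells kept from tumors of mice bearing MC38, a transplanted mouse colon carcinoma line. They were chosen by their own counts of unique molecular identifiers (UMIs, 1 per captured probe molecule). A cell qualified with at least 500 detected genes, at most 10% mitochondrial UMIs, a UMI of Csf3r, the receptor for G-CSF, and at least 3 UMIs of S100a8 and S100a9, which encode calprotectin. It also held under 0.1% of UMIs on the macrophage genes C1qa, C1qb, C1qc and Csf1r, at most 2 UMIs of the T cell genes Cd3d, Cd3e and Cd3g, and at most 1 of the NK cell genes Ncr1 and Klrb1c. Among the 503 cells that met these limits, the 89 had more UMIs of Retnlg, Lrg1 and Mmp9 than of Cxcl2, Cxcl3 and Il1f9. The 399 with fewer are called Cxcl2-high neutrophils here, and 15 cells were tied.

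There was 1 library for each of 4 groups of B-hCTLA-4 mice, C57BL/6 animals that carry human CTLA-4 in place of the mouse protein and whose age the sources used here do not give. Each library held sorted live CD45+ cells pooled from the tumors of 11 mice, treated by intraperitoneal injection from a tumor size of 100 mm3 and harvested on day 8. The groups received a human IgG1 isotype control at 10 mg/kg, 1 of 2 single antibodies, or a combination of anti-human CTLA-4 (ipilimumab, human IgG1) at 10 mg/kg and anti-mouse FcγRII (AT130-2, mouse IgG1 with an N297A Fc) at 20 mg/kg. For both libraries given a single antibody the sample records contradict themselves, title against treatment field, so they are called single antibody A (title anti-human CTLA-4) and B (title anti-mouse FcγRII), and which of them received ipilimumab is not settled. The article states other numbers of tumors, another day, another size and other doses than these sample records.

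Neutrophils are short-lived granulocytes that mature in bone marrow under G-CSF and make their granule proteins in waves, primary granules first and tertiary granules last. Mature cells in blood carry the chemokine receptor Cxcr2 and, in the mouse, abundant Retnlg (resistin-like gamma) transcript, and lose much of this after they enter inflamed tissue, where chemokines such as Cxcl2 are switched on. Interferons switch on genes such as Gbp2, Gbp5, Irf1, Socs1 and Cd274, which encodes PD-L1.

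The deposited libraries held 129151823 to 196362818 UMIs, and the filters left 8148 cells of isotype control, 6364 of single antibody A, 6083 of single antibody B and 7599 of the combination. The tumor cells had been passed over a density gradient made to keep lymphocytes, which most granulocytes sink through, so that the number of neutrophils here does not measure their number in the tumor. With 1 library per group, groups cannot be told apart from libraries, no test was made, and the 95% intervals below cover counting error only. No blood sample was in the series, so the working label blood-like could not be checked against blood, and the cells are named here by Retnlg, 1 of the 3 genes that set them apart.

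Stretches of promoter from RefSeq (build GRCm38.p6) are shown for Retnlg and Cxcl2, which stand on opposite sides of the rule, for Cxcl3, and for 4 interferon-responsive genes described below, picked after their levels were seen. Each is 30 bases, 5′ to 3′ on the strand of the gene, with matches to a searched motif in capitals.
Retnlg: agctTTCTGCAAggcattccaggcacctcc
Cxcl2: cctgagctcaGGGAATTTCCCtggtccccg
Cxcl3: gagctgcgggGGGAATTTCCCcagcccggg
Gbp2: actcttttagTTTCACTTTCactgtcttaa
Gbp5: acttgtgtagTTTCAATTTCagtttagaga
Gbp5: tggccgttatTTCTCAGAAccaagcacaga
Irf1: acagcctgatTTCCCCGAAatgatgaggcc
Socs1: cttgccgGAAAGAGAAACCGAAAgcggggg

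In the order shown these stretches lie at chr16:48872358-48872387 (+), chr5:90903792-90903821 (+), chr5:90786018-90786047 (+), chr3:142620594-142620623 (+), chr3:142496759-142496788 (+), chr3:142496872-142496901 (+), chr11:53769914-53769943 (+) and chr16:10785597-10785626 (-), all within 250 bases before the RefSeq start of the gene. Motifs were searched on both strands of those 250 bases in 32851 promoters, leaving out chromosome 18. TTGCNNAA, a form of the C/EBP motif, was in 9.56% of promoters and matched in Retnlg and in S100a9, which is not shown. GGGA and TTCC with any 2 bases between them, a form of the kappa-B motif, were in 1.21% and matched in Cxcl2 and Cxcl3 and, not shown, at 1 position each in Gbp5 and Csf3r. The 2 matches in each chemokine gene overlap by all but 1 base. GAAA and GAAA with any 2 bases between them, the core of the interferon-stimulated response element, were in 2.98% and matched in Gbp2, Gbp5 and Socs1, with 2 overlapping matches in Socs1. TTCNNNGAA, the gamma-interferon activated site, was in 7.02% and matched at 1 annotated start of Irf1 and at 2 positions in Gbp5, of which 1 is shown, and in Il1f9, which is not shown. The same windows of Lrg1, S100a8, Cd274, Il1rn and Il1a held no match to any of the 4 motifs, which says only that these letters are not there.

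The rule gave 27 Retnlg-high neutrophils in isotype control, 15 in single antibody A, 15 in single antibody B and 32 in the combination. UMIs per member had a median of 3121, 2971, 3499 and 3398.5 in that order, against a median of 16845 over all cells kept. Of the members, 9 passed the last step by 1 or 2 UMIs, and 11 Cxcl2-high cells missed it by 1 or 2. In isotype control, members held 5 to 179 UMIs of Retnlg, Lrg1 and Mmp9 with a median of 28, and 0 to 13 UMIs of Cxcl2, Cxcl3 and Il1f9 with a median of 3. In the combination the first sum ran from 1 to 70 with a median of 16.5 and the second from 0 to 20 with a median of 2.5. The median difference between the sums was 20 UMIs in isotype control, 15 in single antibody A, 17 in single antibody B and 12 in the combination, whose members lay nearest to the dividing line.

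**Figure D1:**
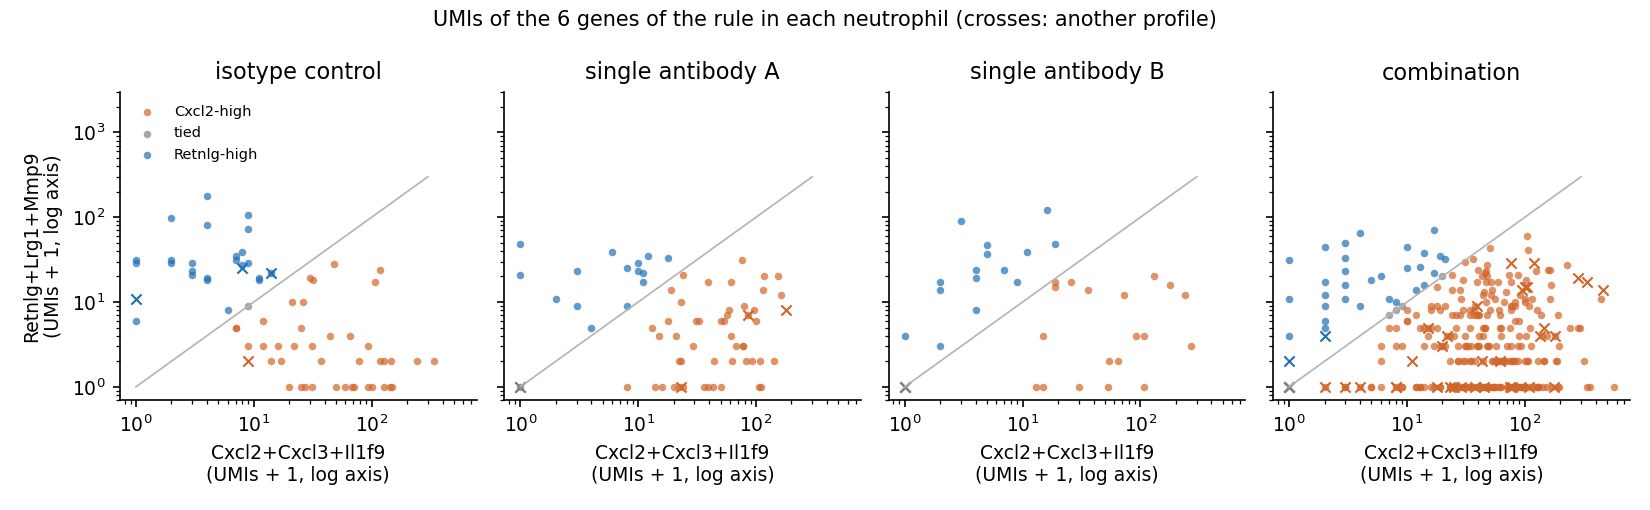
Each point is 1 neutrophil of the rule, with its UMIs of Cxcl2, Cxcl3 and Il1f9 on the x axis and of Retnlg, Lrg1 and Mmp9 on the y axis (both plus 1, log axes), for the 4 libraries; crosses mark cells with over 8000 UMIs or 1% or more of UMIs on MHC class II genes. The 27, 15, 15 and 32 Retnlg-high cells lie above the diagonal by construction, and the 286 Cxcl2-high cells of the combination fill the area below it.

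Retnlg itself, the gene with which these cells are labelled, had a UMI in 22 of 27 members in isotype control, 12 of 15 in single antibody A, 12 of 15 in single antibody B and 19 of 32 in the combination. Its summed level was 4935 UMIs per 1000000 UMIs of the members (CPM) in isotype control, 2065 in single antibody A, 4779 in single antibody B and 2066 in the combination. In T cells of the same libraries it stood at 1.06, 0.239, 0 and 0 CPM, so that the background signal of Retnlg was near 0. The other members qualified on Lrg1 or on Mmp9, a gelatinase of tertiary granules, and 13 of the 32 members of the combination lacked Retnlg. Since the rule used these genes, the values describe the choice and are no result.

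Of the 89 members, 5 carried another profile, with over 8000 UMIs or 1% or more of UMIs on the MHC class II genes Cd74, H2-Aa, H2-Ab1 and H2-Eb1, limits set after the cells had been seen. Isotype control held 3 of them, of 22583, 15466 and 5456 UMIs, led by Cd74, by the fibronectin gene Fn1 and by the chemokine gene Ccl5. The combination held 2, of 12574 and 8835 UMIs, led by the vimentin gene Vim and by the lysozyme gene Lyz2. None of the 5 had a Retnlg UMI, and they held 35.8% of the members' UMIs in isotype control and 18.1% in the combination. Leaving them out multiplies the CPM of a gene absent from them by 1.56 in isotype control and by 1.22 in the combination, with no change in its UMIs. Many of the levels that changed without these cells are therefore given both ways. Of the Cxcl2-high cells, 1, 3, 0 and 33 met the same limits in isotype control, single antibody A, single antibody B and the combination. They held 8.98%, 21.4%, 0% and 36.0% of the UMIs of Cxcl2-high cells. Summed levels of Cxcl2-high cells given below include them.

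Markers of other cells were low in the members. The 4 B cell, 5 NK cell, 5 mast cell and basophil, and 4 red cell markers had no UMI in any library. The 8 T cell markers summed to 41.1, 22.0, 19.2 and 25.3 CPM in isotype control, single antibody A, single antibody B and the combination, with 3 of them at 0 throughout and Cd3d the most abundant. The 6 dendritic cell markers summed to 32.9, 22.0, 38.4 and 25.3 CPM (2 at 0, Clec9a highest), the 5 eosinophil markers to 16.45, 65.9, 153.5 and 8.43 CPM (3 at 0, Siglecf highest), the 5 platelet markers to 49.35, 0, 0 and 25.3 CPM (3 at 0, Pf4 highest), and the 7 markers of fibroblasts and tumor cells to 156, 22.0, 19.2 and 0 CPM (3 at 0, Epcam highest). The 10 macrophage markers, of which the rule limits 4, summed to 1925, 923, 1132 and 1577 CPM, Apoe being the most abundant, and to 1050.0 and 947 CPM in isotype control and the combination without the 5 cells of another profile. The 5 monocyte markers in the probe panel summed to 600.5, 0, 19.2 and 1037 CPM with Chil3 highest, and to 64.05 and 51.5 CPM in the same 2 libraries without those cells. Monocyte markers in the members thus came mostly from those 5 cells.

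Retnlg-high neutrophils made up 0.331% of the cells kept in isotype control (95% exact binomial interval 0.218 to 0.482%), 0.236% in single antibody A (0.132 to 0.388%), 0.247% in single antibody B (0.138 to 0.406%). The combination had 0.421% (0.288 to 0.594%). These intervals overlapped. The combination stood at 1.27 times isotype control (log interval 0.762 to 2.12), 1.79 times single antibody A (0.968 to 3.30) and 1.71 times single antibody B (0.926 to 3.15). A difference in the share of all cells was thus not detectable at these numbers. Without the limit on macrophage genes the combination stood at 1.59 times isotype control (1.11 to 2.27), an interval above 1, and with a Retnlg UMI required of each member at 0.926 times (0.502 to 1.71). Cxcl2-high neutrophils made up 0.515%, 0.817%, 0.312% and 3.76% in the same order, and the combination stood at 7.30 times isotype control (5.29 to 10.1), or at 13.1 times (8.13 to 21.2) over cells with at least 1000 detected genes. Retnlg-high cells accordingly formed a smaller part of the neutrophils in the combination, 9.82% (6.81 to 13.6%), than in isotype control, 38.6% (27.2 to 51.0%), single antibody A, 21.4% (12.5 to 32.9%), or single antibody B, 40.5% (24.8 to 57.9%). Against isotype control the combination had 0.254 times the share (0.164 to 0.396), or 0.287 times (0.181 to 0.458) without cells of another profile.

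**Figure D2:**
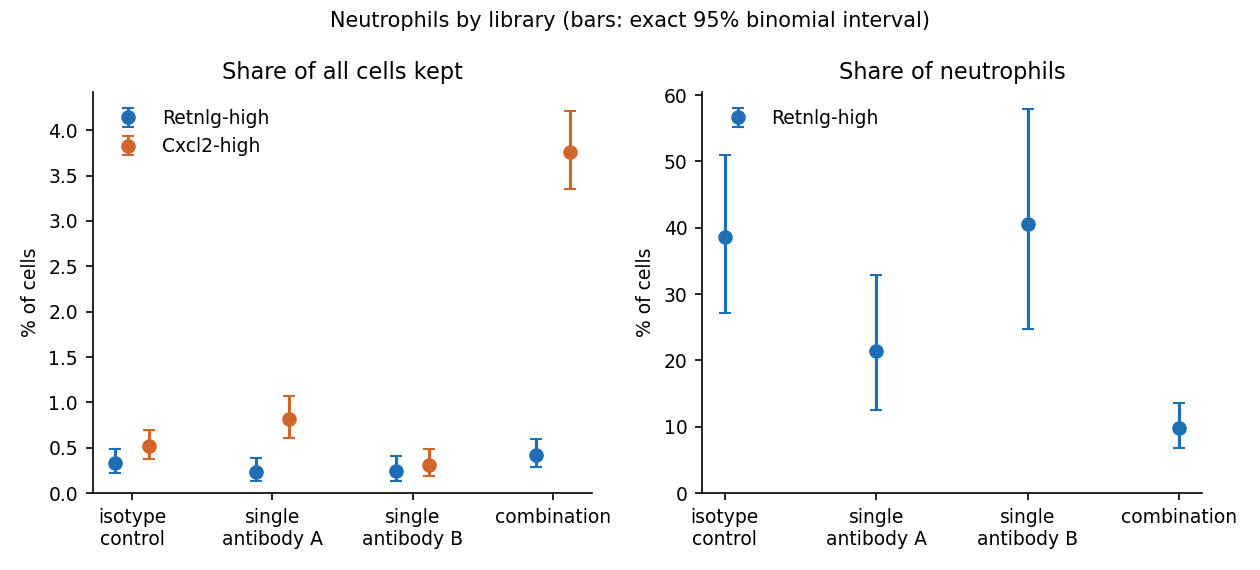
The left panel gives Retnlg-high (blue) and Cxcl2-high (orange) neutrophils as % of all cells kept in each library and the right panel gives Retnlg-high as % of the neutrophils of the rule; points are shares and bars exact 95% binomial intervals. The Retnlg-high share of all cells stays between 0.236% and 0.421%, whereas its share of neutrophils is lowest in the combination at 9.82%.

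Primary granule genes were near absent from the members. Of the 7 primary granule genes in the panel, 6, among them Mpo, Elane and Ctsg, had no UMI in any member, and Prtn3 had 2 UMIs in 1 cell of the combination, a cell of another profile. Secondary granule genes were mixed, and their 10 genes summed to 5305, 3472, 3474 and 5010 CPM in isotype control, single antibody A, single antibody B and the combination. Camp had no UMI, Ngp had 10 UMIs in isotype control and 2 in the combination, and Ltf, lactoferrin, had 29, 2, 0 and 5 UMIs, 28 of the 29 in 1 cell of isotype control. Others of the list were well measured, with Lcn2, a siderophore-binding protein, at 1415, 1187, 1708 and 1029 CPM. Mmp8, neutrophil collagenase of later granules, stood at 633, 637, 729 and 557 CPM. Hp, haptoglobin, stood at 2023, 2109, 2840 and 1543 CPM. The proliferation gene Mki67 had 10, 1, 0 and 1 UMIs, and the 10 in isotype control lay in the cells of another profile.

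The members were next set beside Cxcl2-high neutrophils of the same library. Both groups were selected on their genes, so the differences are descriptions. Of 1592 genes with 100 CPM or more in a group of cells in every library, 136 (8.54%) were 2-fold or more higher and 83 (5.21%) 2-fold or more lower in Retnlg-high cells in all 4 libraries. Without cells of another profile these numbers were 181 and 112 of 1563. The genes with the steadiest excess were Ccpg1, an ER-phagy receptor, Tbc1d10c, Pi16, Fam122a, Hp, R3hdm4, AI467606, Tmem154, Dhrs7, Kif23, Mtus1 and Cd101. Ccpg1 stood at 699, 791, 1171 and 447 CPM in Retnlg-high and at 46.4, 64.0, 137 and 57.8 CPM in Cxcl2-high cells of isotype control, single antibody A, single antibody B and the combination. Cd101, a surface protein that marks mature neutrophils in the mouse, stood at 296, 659, 557 and 219 CPM against 61.9, 24.6, 15.2 and 24.45 CPM. For both genes the lowest Retnlg-high library lay above the highest Cxcl2-high library.

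Homing receptors were among the higher genes. Of 12 adhesion and homing receptors compared, 4 were higher and 1 lower in all 4 libraries, beside 8.54% higher and 5.21% lower over all genes. Selplg, the P-selectin ligand, stood at 1604, 2065, 1862 and 1383 CPM against 364, 423.5, 243 and 363 CPM in Cxcl2-high cells. Cxcr2, the receptor for Cxcl2 itself, had a UMI in 89.0%, 100%, 92.1% and 86.75% of members drawn down to 2392 UMIs, against 57.5%, 77.2%, 57.2% and 61.4% of Cxcl2-high cells. T cells, which should lack it, gave 0%, 0%, 0% and 0.0988% at the same depth. Members shallower than that were left out (4, 0, 2 and 3 of them), and without drawing down the members' shares were 92.6%, 100%, 93.3% and 87.5%. Median UMIs per cell of Retnlg-high and Cxcl2-high cells were alike, 3121 against 2849.5 in isotype control and 3398.5 against 3426 in the combination.

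Tertiary granule and protease genes held several of the higher genes. Of 9 tertiary granule and protease genes, 4 were higher and none lower in all 4 libraries, among them Padi4, the arginine deiminase used in extracellular trap formation, at 411, 439, 633 and 304 CPM against 77.4, 93.6, 60.8 and 57.0 CPM, and Wfdc21 at 313, 439, 652.5 and 413 CPM against 46.4, 118, 106 and 78.5 CPM. Secondary granule genes gave 2 higher and 0 lower of 5, oxidase genes 1 and 0 of 5, S100 genes 1 and 0 of 2, numbers too small to read a direction from beside the 8.54% of all genes that were higher. Rac2, a small GTPase of the oxidase, stood at 2682, 3867, 3742 and 2260 CPM against 697, 768, 1034 and 659 CPM. Cebpd, a C/EBP transcription factor, stood at 855.5, 1714, 1420 and 810 CPM against 217, 177, 167 and 164 CPM, and 1 of 17 transcription factors was higher and 2 lower.

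Some genes of inflammatory and hypoxic tumor neutrophils were lower in the members. Over all genes compared, 5.21% were lower and 8.54% higher. Of 11 inflammatory cytokine and chemokine genes 6 were lower and 0 higher, and of 11 tumor neutrophil and hypoxia genes 5 were lower and 0 higher. The most abundant gene of each list was not among them, Il1b, interleukin-1 beta, standing at 0.684, 0.873, 1.46 and 1.26 times and Slc2a3, a glucose transporter, at 1.41, 3.41, 2.29 and 1.98 times its level in Cxcl2-high cells. With the cells of another profile left out of the members but not of the Cxcl2-high cells, Slc2a3 stood at 2.19 times in isotype control and 2.42 times in the combination. Ccl3, a chemokine, stood at 411, 308, 307 and 573.5 CPM against 5565, 4658, 7253 and 5173 CPM, and in isotype control at 179 CPM without the cells of another profile. Tnf stood at 82.3, 0, 96.0 and 177 CPM against 619, 808, 563 and 991 CPM. Vegfa, the angiogenic factor, stood at 82.3, 0, 57.6 and 118 CPM against 991, 650.0, 1004 and 488 CPM, and in the combination at 61.8 CPM without the cells of another profile, which held 8 of its 14 UMIs. The other genes with the steadiest deficit were the heat shock gene Hspa1b, Rhov, Spp1, Inhba, the stress gene Gadd45b, Ifrd1, the collagen hydroxylase P4ha1, Ccdc126 and Rgs1. Spp1, osteopontin, stood at 444 CPM in isotype control, and at 51.2 CPM without the 5 cells of another profile.

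**Figure D3:**
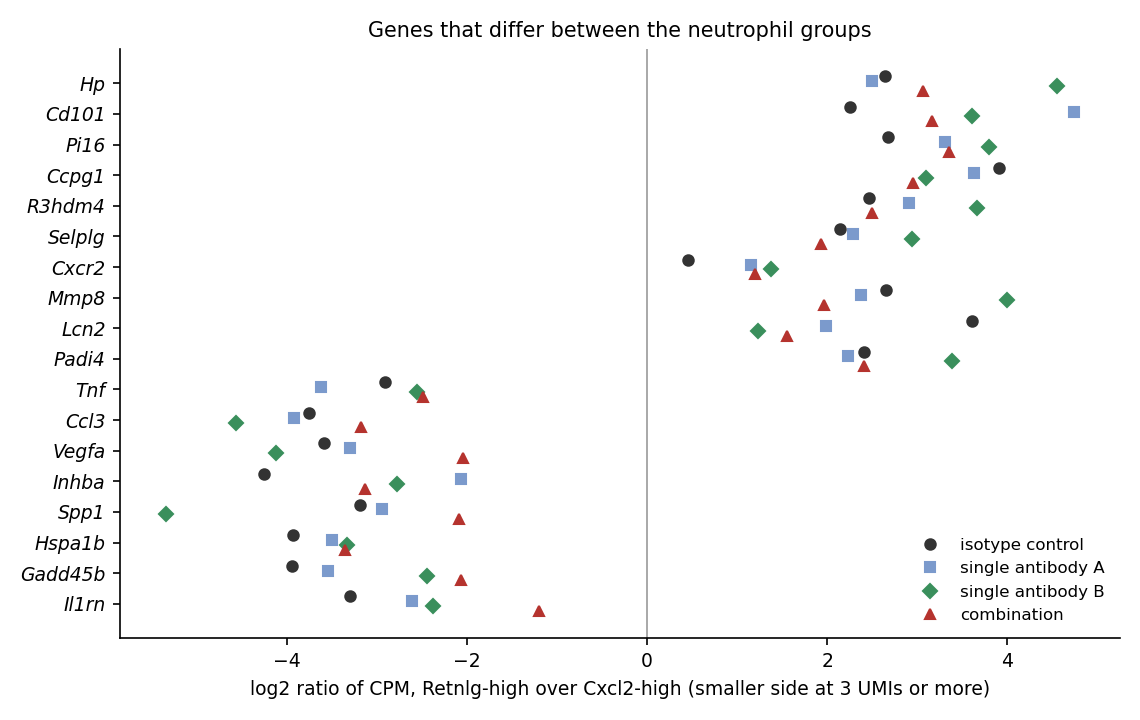
The log2 ratio of CPM in Retnlg-high over Cxcl2-high neutrophils is plotted for 18 genes, 1 symbol per library, the smaller side set to at least 3 UMIs. The upper 10 genes lie right of 0 and the lower 8 left of 0 in each library, Il1rn being nearest to 0 in the combination.

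The remaining lists differed in how many genes were called, beside 8.54% higher and 5.21% lower over all genes compared. Lipid mediator and metabolism genes gave 2 higher, with Alox5ap, the 5-lipoxygenase activating protein, at 1645, 2219, 2034 and 1476 CPM against 542, 591, 517 and 574 CPM, and 3 lower of 10. Pattern, complement and peptide receptors gave 1 and 1 of 12, survival and death genes 0 and 1 of 7, and the 4 Fc receptors, 15 cytokine receptors, 20 interferon response genes, 6 antigen presentation genes and 1 gene of immature and dividing neutrophils compared gave none in either direction. The primary granule list had no gene with 100 CPM to compare. A list without calls in all 4 libraries can still differ within a library. The median log2 ratio of interferon response genes to Cxcl2-high cells was -1.40 in isotype control and -1.36 in single antibody A. It was 0.739 in single antibody B and -0.329 in the combination. Over all genes these medians were 0.088, 0.042, -0.012 and 0.068.

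Across the 89 members, the 5 genes whose level per cell was most like that of Retnlg, by Pearson's r of log2(UMIs per 10000 + 1) over 4209 genes, were Hp (r = 0.73), Pglyrp1 (0.70), which encodes a peptidoglycan-binding granule protein, S100a9 (0.68), Slc2a3 (0.68) and R3hdm4 (0.62). The least like were the lectin gene Clec4n (r = -0.64), the interferon-inducible GTPase gene Ifi47 (-0.58), Tapbp (-0.57), which serves MHC class I loading, Ninj1 (-0.56) and Irgm1 (-0.56), another interferon-inducible GTPase. Without the 5 cells of another profile Hp remained first (r = 0.71) and Cd274 entered the least like genes (-0.57). The points share libraries and depth, and these values are descriptions.

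The largest shares of the members' UMIs outside the rule, which also depend on the probes of each gene, went to Tmsb4x, Il1b, Dusp1, Srgn, Fos, Zfp36, S100a11, Fth1, Tyrobp and Msrb1. Of these, Il1b was close between libraries at 9278, 12740, 12440 and 12120 CPM in isotype control, single antibody A, single antibody B and the combination. Fth1, ferritin heavy chain, was highest in the combination at 10380 CPM, against 5429, 5801 and 3013 CPM, and isotype control stood at 3241 CPM and the combination at 10880 CPM without the 5 cells of another profile. The immediate early gene Fos was lowest there, at 2707 CPM against 6638, 7910 and 8310 CPM.

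The comparison of the combination with isotype control asks how these cells differed when both antibodies had been given. Among 2342 genes outside the rule with 100 CPM or more in a library of the pair, 299 (12.8%) were 2-fold or more higher in the combination and 251 (10.7%) 2-fold or more lower, the smaller side being set to at least 3 UMIs. Without the 5 cells of another profile, these became 432 (19.8%) and 300 (13.7%) of 2183. In 2727 genes compared over the 4 libraries, 100 (3.67%) stood 2-fold or more above each other library in the combination and 23 (0.843%) below each, or 130 (5.05%) and 41 (1.59%) of 2576 without those cells. Leaving out members in droplets shared between libraries gave 36 above each, 19 of them among the 100, and 39 below each. It also gave 319 genes higher and 516 lower than isotype control, of 2419.

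Interferon response genes were the list with the most higher genes. Over all genes tested, 12.8% were 2-fold or more higher and 10.7% lower than in isotype control. Of the 20 genes of this list, 11 were higher and 1, Ifitm6, was lower. Their median log2 ratio was 1.06 against 0.04 over all genes tested. Without the 5 cells of another profile 13 were higher and 1 lower, with a median of 1.52 against -0.03. Gbp2, a guanylate-binding protein, stood at 600.5 CPM in isotype control, 308 in single antibody A, 537 in single antibody B and 3070 in the combination. The combination was 5.11 times isotype control (exact conditional interval 3.97 to 6.67), and without the 5 cells isotype control stood at 102.5 CPM and the combination at 3489 CPM. Gbp5 stood at 65.8, 0, 365 and 1307 CPM, all 8 UMIs of isotype control lying in cells of another profile. Irf1, a transcription factor, stood at 535, 725, 998 and 2345 CPM, 4.38 times isotype control (3.34 to 5.84). Cd274 stood at 197, 176, 384 and 1931 CPM, 9.78 times isotype control (6.41 to 15.6). Leaving out the 5 cells gave 141 CPM against 2234 CPM, a ratio of 15.85 (8.69 to 32.2). For these 4 genes the combination was 2-fold or more above each other library, and single antibody B was second for Gbp5, Irf1 and Cd274.

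Not all interferon genes followed that order. Ifit3, a type I interferon gene with a near-identical paralog, was highest in single antibody B at 1670 CPM, against 164.5, 395.5 and 590 CPM in isotype control, single antibody A and the combination. Without the cells of another profile, Ifit3 stood at 76.9 CPM in isotype control. Rsad2, an antiviral enzyme, stood at 329, 923, 1247 and 1442 CPM and Isg15 at 691, 1428, 1152 and 1906 CPM, so that the lowest library was isotype control and the combination was less than 2-fold above the higher of both single antibodies. With the cells of another profile left out, Isg15 was at 474 CPM in isotype control, against 2203 CPM in the combination. Over members with a Retnlg UMI it stood at 388, 674, 500 and 1686 CPM. Slfn4, summed over all members, was highest in single antibody B, at 1563, 3142, 3301 and 2657 CPM. Over members with a Retnlg UMI it was highest in single antibody A, at 2161, 2887, 2705 and 2773 CPM.

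Among the genes that stood furthest above each other library were Socs1, an inhibitor of cytokine signalling, at 41.1, 22.0, 57.6 and 886 CPM (5, 1, 3 and 105 UMIs), and Il1a, interleukin-1 alpha, with 2, 1, 0 and 48 UMIs. The 48 UMIs of Il1a lay in 6 of 32 members, and its level in the combination was 405 CPM over all members but 76.4 CPM over those with at least 2 times as many UMIs of Retnlg, Lrg1 and Mmp9 as of Cxcl2, Cxcl3 and Il1f9. The coagulation factor gene F10 had 3, 2, 0 and 48 UMIs, and Rhoh 1, 0, 2 and 46 UMIs. The transcription factor gene Bhlhe40 stood at 10, 4, 1 and 57 UMIs, the uridine phosphorylase gene Upp1 at 11, 1, 3 and 56 UMIs and the lipid droplet gene Plin2 at 173, 154, 154 and 869 CPM. Without the 5 cells of another profile, isotype control and the combination had 1 and 51 UMIs of Bhlhe40, 2 and 56 of Upp1, 3 and 53 of Plin2, 1 and 34 of F10, 0 and 45 of Rhoh and 0 and 47 of Il1a. Over members with a Retnlg UMI, the combination stood at 94.5 CPM for F10 and 284 CPM for Plin2, against 405 and 869 CPM over all members. Pdpn, podoplanin, had 4, 0, 0 and 35 UMIs, of which 3 of the 35 in the combination remained without the cells of another profile.

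The genes that stood furthest below each other library were Ccdc71l, Palm, Arid1b, Maz, Ndfip1, Sephs2, Fosb, Slc35e1, Arhgap15 and Ivns1abp. Fosb, an AP-1 factor, stood at 962, 725, 710 and 236 CPM, 0.245 times isotype control (0.156 to 0.373), and Sephs2, a selenophosphate synthetase, at 568, 725, 633 and 177 CPM. The homing regulator Klf2 stood at 2320, 1428, 2169 and 843 CPM and the prostaglandin synthase gene Ptgs2 at 1267, 1538, 2457 and 506 CPM. Ptgs2 stood at 1227, 940, 2457 and 186 CPM over members with at least 2 times as many UMIs of Retnlg, Lrg1 and Mmp9 as of Cxcl2, Cxcl3 and Il1f9. Most of the other genes named here rest on few UMIs, such as Palm with 20, 8, 12 and 4. Without the cells of another profile, 9 of the 20 UMIs of Ccdc71l and 5 of the 24 of Ivns1abp remained in isotype control.

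**Figure D4:**
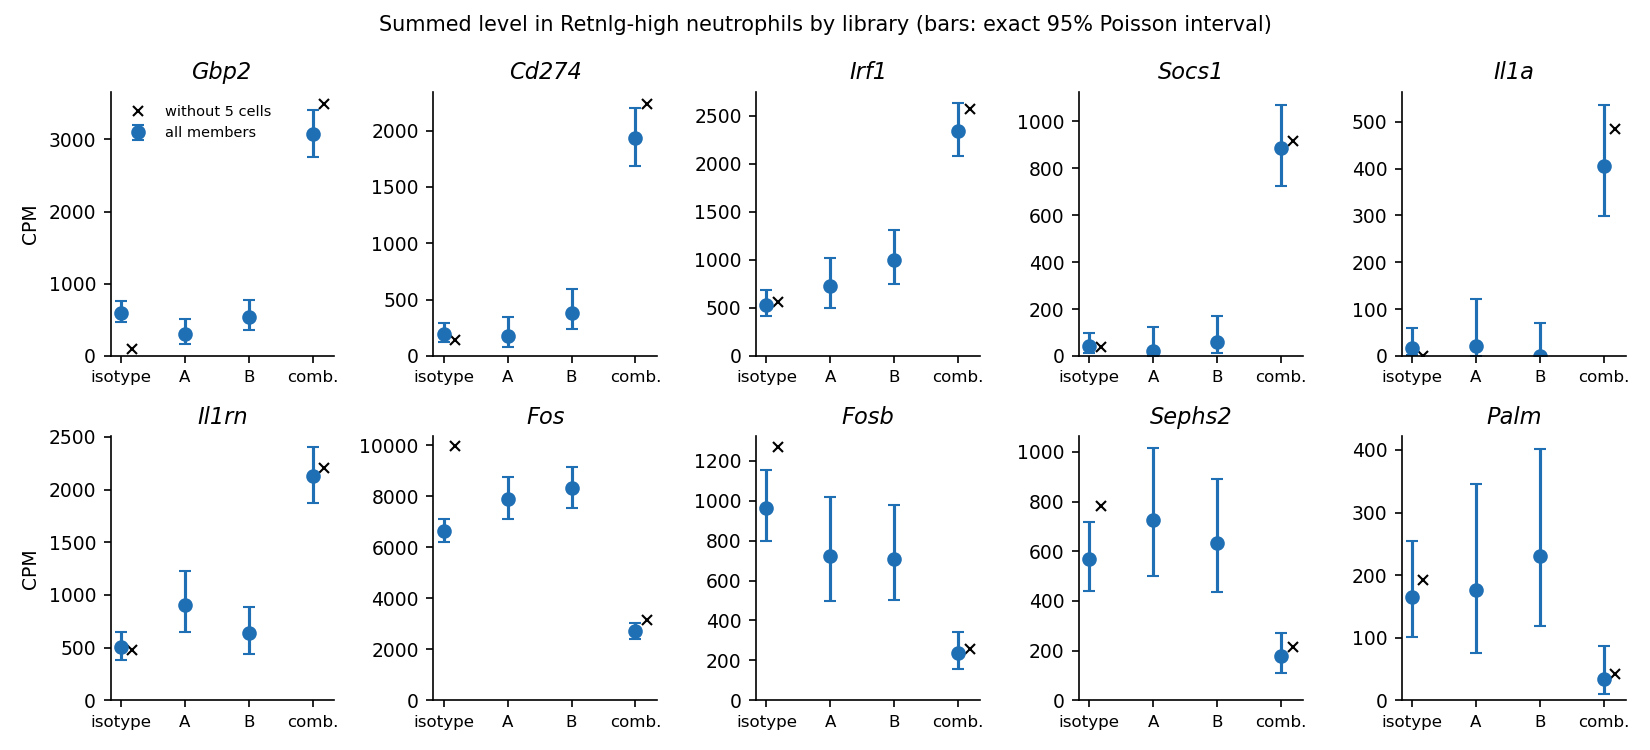
Summed levels in CPM of 10 genes in Retnlg-high neutrophils are plotted for isotype control, single antibody A, single antibody B and the combination, with exact 95% Poisson intervals, and crosses mark isotype control and the combination without the 5 cells of another profile. Gbp2, Cd274, Irf1, Socs1, Il1a and Il1rn are highest and Fos, Fosb, Sephs2 and Palm lowest in the combination, with and without those cells.

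The list counts here and in the next 2 paragraphs stand beside 12.8% higher and 10.7% lower over all genes tested. Without the 5 cells of another profile these shares were 19.8% and 13.7%. Lists with a few calls are too small to read a direction from. Cytokine receptors gave 5 higher and 0 lower of 15, with 2 of them 2-fold or more above each other library. One of these was Il4ra, at 263, 286, 288 and 649 CPM. Il1r2, the decoy receptor for interleukin-1, stood at 354, 527, 537 and 1029 CPM, less than 2-fold above both single antibodies. Without the cells of another profile the combination stood at 1256 CPM, more than 2-fold above each of the other libraries. Inflammatory cytokine and chemokine genes gave 5 higher and 3 lower of 12, with Il1rn, the interleukin-1 receptor antagonist, at 502, 901, 633 and 2125 CPM, 4.24 times isotype control (3.19 to 5.70). Lipid mediator and metabolism genes gave 4 and 0 of 10, led by Acod1, which makes itaconate, at 271, 220, 787 and 1881 CPM, and at 154 and 2182 CPM in isotype control and the combination without the cells of another profile. Tumor neutrophil and hypoxia genes gave 3 and 0 of 11, with the heme oxygenase gene Hmox1 at 27, 1, 5 and 108 UMIs. In isotype control and the combination Hmox1 stood at 222 and 911 CPM, and at 205 and 638 CPM without the cells of another profile. Adhesion receptors gave 3 and 0 of 13, pattern and peptide receptors 3 and 0 of 12 with the endotoxin coreceptor Cd14 at 444, 1318, 729 and 2050 CPM, and transcription factors 3 and 3 of 17. Over members with at least 2 times as many UMIs of Retnlg, Lrg1 and Mmp9 as of Cxcl2, Cxcl3 and Il1f9, Cd14 stood at 456.5, 1058, 729 and 819 CPM, so that its highest library was single antibody A. Il1rn stood over the same members at 409, 940, 633 and 1299 CPM, less than 2-fold above single antibody A. Over members with a Retnlg UMI, Il1rn in the combination was at 1323 CPM. Without the cells of another profile, inflammatory genes gave 7 higher and 1 lower of 11 and tumor neutrophil and hypoxia genes 5 and 1 of 9. Pattern and peptide receptors then gave 3 and 1 of 12.

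Antigen presentation genes gave 2 higher and 3 lower of 8, and 4 higher and 0 lower of 7 without the 5 cells of another profile, since Cd74, the MHC class II invariant chain, stood at 6276 CPM in isotype control with them and 166.5 without. B2m, the light chain of MHC class I, stood at 798, 1230, 1516 and 2421 CPM, and in isotype control at 487 CPM without those cells. It stood at 1204, 2264, 2566 and 2986 CPM in T cells of the same libraries as well, so that isotype control was the lowest library in both. The peptide transporter gene Tap1 stood at 263, 242, 211 and 692 CPM in the members, and at 179 and 751 CPM in isotype control and the combination without the cells of another profile. It stood at 513 CPM over the members of the combination farther from the dividing line, and at 509.5, 526.5, 568 and 537 CPM in T cells.

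Tertiary granule genes gave none of 9 in either direction, oxidase genes none of 6, S100 genes none of 4 and Fc receptors none of 5. Secondary granule genes gave 2 higher and 1 lower of 6, survival genes 1 and 0 of 8, and immature and dividing genes 0 and 3 of 5. Without the 5 cells of another profile these last 3 lists gave 1 and 4 of 7, 4 and 0 of 8, and none of 1. Fc receptors then gave 2 and 0 of 4 and tertiary granule genes 1 and 0 of 9. Fcgr2b, the target of the anti-FcγRII antibody, had 63, 0, 1 and 41 UMIs, and 3 and 28 in isotype control and the combination without those cells.

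Per cell, the sum of 5 interferon-responsive genes was uneven among members of the combination. Gbp2, Gbp5, Cd274, Irf1 and Socs1, 5 genes picked after their levels were seen, were summed in each member. The sum ran from 0 to 43.99 UMIs per 10000 with a median of 8.73 in isotype control and from 2.80 to 37.5 with a median of 7.71 in single antibody A. It ran from 0 to 156.5 with a median of 13.3 in single antibody B and from 0 to 495.5 with a median of 36.3 in the combination. In the combination 15 of 32 members lay above the highest member of isotype control, and 5 lay at or below its median, whereas 0 of 15 members in single antibody A and 3 of 15 in single antibody B lay above that highest member. Those above in the combination were 6 of the 19 members with a Retnlg UMI and 9 of the 13 without one, and 1 of them was a cell of another profile. The 2 highest members of isotype control, at 43.99 and 42.0, were cells of another profile. With such cells left out of every library, which was chosen after seeing the data, the highest member of isotype control was at 25.02, and 17 of 30 members in the combination, 2 of 15 in single antibody A and 4 of 15 in single antibody B lay above it. Members with a Retnlg UMI had a median of 15.4 in the combination and 7.12 in isotype control. The summed levels of the combination thus rested on part of its members.

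**Figure D5:**
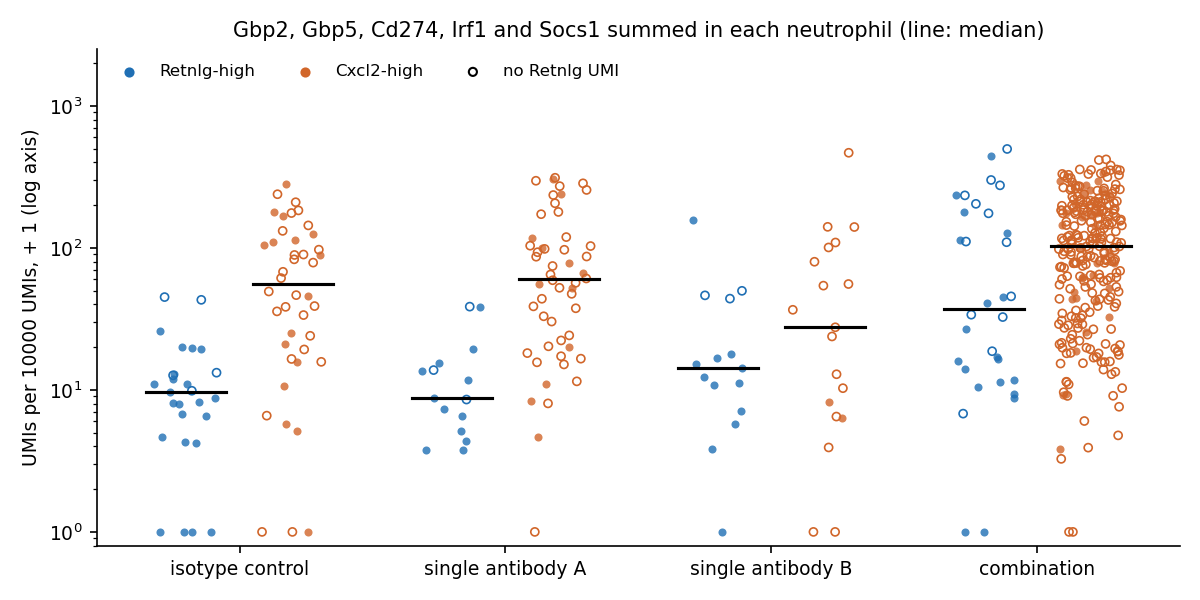
Each point is 1 neutrophil, with the summed UMIs of Gbp2, Gbp5, Cd274, Irf1 and Socs1 per 10000 UMIs, plus 1, on a log axis, by library; blue is Retnlg-high, orange Cxcl2-high, open points lack Retnlg and lines are medians. In the combination 15 of 32 Retnlg-high cells lie above the highest of isotype control, while others lie as low as in isotype control.

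Members with a Retnlg UMI still had higher summed levels in the combination. Gbp2 stood at 111, 162, 432 and 2048 CPM over the 22, 12, 12 and 19 such members of isotype control, single antibody A, single antibody B and the combination, Cd274 at 97.0, 162, 295.5 and 1308 CPM, and Irf1 at 582, 728, 750.0 and 2379 CPM. In Cxcl2-high neutrophils Gbp2 stood at 2864, 2669, 2874 and 3532 CPM and Cd274 at 2887, 2772, 1475 and 2962 CPM, so that isotype control was not the lowest library for either. Irf1, at 1099, 2019, 1992 and 2112 CPM, and Gbp5, at 379, 1206, 1019 and 1414 CPM, were lowest there in isotype control. The Retnlg-high members of the combination thus lay nearer to Cxcl2-high levels than those of the other libraries did. All other cells kept, the neutrophils of the rule left out, were also highest in the combination, with Gbp2 at 584, 725, 452 and 1213 CPM, Cd274 at 128, 189, 97.9 and 430.5 CPM and Irf1 at 388, 457, 298 and 689 CPM. In T cells Gbp2 stood at 317, 227, 252.5 and 237 CPM and Irf1 at 508, 446, 474 and 424 CPM, both highest in isotype control, whereas Cd274 was highest in the combination at 121, 100.4, 107 and 198 CPM. Over members farther from the dividing line, with at least 2 times as many UMIs of Retnlg, Lrg1 and Mmp9 as of the other 3 genes, Gbp2 stood at 571, 118, 537 and 2522 CPM, Cd274 at 171, 118, 384 and 1681 CPM and Irf1 at 504, 588, 998 and 2118 CPM, so that the combination remained the highest library. The part that RNA from other cells of the library had in these differences was not tested.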

How the data were processed

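The authors hybridized fixed cells with the Chromium Flex probe panel and deposited UMI counts of 19059 genes per called cell from Cell Ranger (7.0.0 per the processing notes, 7.2.0 per the file headers), on build mm10 per the processing notes, all labelled as 1 batch. Counts were summed over the members of a library and given per 1000000 UMIs. A gene was called at 2-fold or more with at least 100 CPM and the smaller side at 3 UMIs or more. Named genes were those of the rule, the 4 with the highest mean CPM of each list, list genes above or below every other library in the combination, the 10 or 12 furthest apart in each comparison, the 10 highest and the 5 most like Retnlg; other genes, the least like ones included, were named after their values were seen. The members and lists were chosen with earlier results of these data known. No doublet caller was run. Barcodes of different libraries shared no full sequence, but 31.4 to 34.8% of cells shared the 16-base droplet part with another library, as did 7, 4, 5 and 12 members. The call rule and intervals were tested on simulated counts. These were independent Poisson and binomial draws, so that the gathering of a gene's UMIs in a few cells was not simulated. Python 3.11.15, numpy 2.4.6, scipy 1.17.1, pandas 2.3.3 and matplotlib 3.10.9 were used. Promoters came from RefSeq and were matched by symbol. Some genes are not reported here.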

Additional observations from a re-analysis of the deposited data

How the results depend on the processing

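No paired analysis was possible because each group has 1 library. The alternatives were other limits of the cell and neutrophil rules, another depth, other scalings and CPM limits, and leaving out cells with most UMIs or in droplets shared between libraries; leaving out cells of another profile and, for levels, requiring a Retnlg UMI were chosen after seeing the data. Every ratio of Retnlg-high shares kept to the interval of its main value. For Cxcl2-high shares of all cells, computed under these settings after seeing the data, the combination stood at 13.1 times isotype control with at least 1000 detected genes and at 6.61 times single antibody A with no limit on macrophage genes, and the other ratios kept to their intervals. Genes 2-fold or more higher than isotype control numbered 299, 580 at 50 CPM and 161 at 200 CPM; those lower numbered 251, 740 at 50 CPM, 66 at 200 CPM and 516 without shared droplets. Genes above each other library numbered 100, and 36 without shared droplets, of which 19 were among the 100, and 93 with a Retnlg UMI required, of which 48 were. Genes below each numbered 23, 89 at 50 CPM, 9 at 200 CPM, 36 without the 5% of members with most UMIs, 39 without shared droplets, 41 without cells of another profile and 44 with a Retnlg UMI required. Against Cxcl2-high cells, 136 genes were higher and 84 at 200 CPM, and 83 lower and 153 with a Retnlg UMI required. The cause was not tested. Among genes whose ratio to isotype control was recomputed in each setting, S100a11 changed sides with a ratio of 1.08 without shared droplets, and Cd74 with 1.03 without the members with most UMIs, 6.24 without another profile and 2.97 with a Retnlg UMI required. Pdpn gave 0.860, 0.804 and 0.379 in the latter 3 settings, where both libraries had 3 UMIs or fewer, so that the limit of 3 UMIs sets the ratio and it has no direction. Fcgr2b went from 0.667 to 7.50 without another profile, and Rgs1 from 18 UMIs in isotype control and 5 in the combination to 1 and 4. Smaller differences changed sides there too, such as that of Vegfa. Members are few, so genes under about 100 CPM rest on a few UMIs in the single antibody libraries, and cells lost on the gradient were not counted.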

Other observations

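Irgm1, Ifi47, Clec4n and Ninj1, outside the lists and among the genes least like Retnlg from cell to cell, were also higher in members of the combination. Irgm1, an interferon-inducible GTPase, stood at 132, 242, 652.5 and 1333 CPM in isotype control, single antibody A, single antibody B and the combination. Ifi47, another such GTPase, stood in the same order at 140, 87.9, 403 and 869 CPM. Without the 5 cells of another profile, Irgm1 stood at 128 CPM and Ifi47 at 12.8 CPM in isotype control, against 1441 and 957 CPM in the combination. Clec4n, which encodes the lectin receptor Dectin-2, stood at 288, 43.9, 576 and 945 CPM, and Ninj1, a membrane protein of lytic cell death, at 502, 549, 422 and 1139 CPM. These genes were picked on the same cells, so that both patterns are 1 description.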
